A study of Homo sapiens with 27 samples.

Results

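Long noncoding RNA (lncRNA) transcripts were examined in 6 nanopore cDNA libraries of RM82 cells, a human Ewing sarcoma line. They were chosen by rule as transcripts that GENCODE release 44 assigns to the lncRNA class and that had a summed count of 10 or more over the 6 libraries, leaving out MALAT1, NEAT1, NORAD, GAS5, ZFAS1 and SNHG genes. Of 93530 transcripts with a count, 1032 were of the lncRNA class and 362, from 229 genes, met the rule. The other 670 had summed counts of 1 to 9, and 23 transcripts sat at exactly 10 and 25 at 9. No transcript had to be left out by name, since none of those genes was among the transcripts analysed here. The choice used the summed counts, so the levels of these transcripts are given as a description.

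The study developed homotrimer unique molecular identifiers (UMIs), tags built of blocks of 3 identical bases that allow errors to be corrected before molecules are counted. RM82 cells received SGC-CLK-1, an inhibitor of the CDC-like kinases that phosphorylate splicing factors, or its solvent DMSO for a day, with 3 libraries in each group. The labels give the treatments as CLK1 and DMSO. They name no separate cultures, so the tests measure the spread between these libraries, which may be technical. The paper's reporting summary states that its experiments were repeated independently at least 3 times unless a figure legend says otherwise. No genotype other than that of the line was given. Summed UMI counts of the treated libraries were 666702, 362826 and 373004, in replicate order, and those of the DMSO libraries were 416352, 523456 and 372876. Of 9 Ewing sarcoma marker genes fixed for the check, 8 had a count, and NKX2-2 was at 0. Summed counts were 8845 for CAV1, 1464 for CCND1, 1373 for BCL11B, 335 for CD99 and 221 for STEAP1. They were low for PRKCB with 55, LIPI with 31 and NR0B1 with 20. The markers of the other human lines grown in the study were mostly low. Plasma cell genes SDC1, TNFRSF17, IRF4 and MZB1 were at 0. Only CD38 exceeded 11, with a summed count of 199, near that of STEAP1. The 8 T cell genes summed to 30 counts, of which CD3G had 24.

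LncRNAs are transcripts without a known protein product. They are grouped by where they lie, since a transcript antisense to a coding gene can touch that gene's expression, a host transcript here is one whose span holds a small RNA gene on the same strand, and an intergenic transcript lies clear of coding genes. Many are spliced and carry a poly(A) tail, which is what the oligo(dT) priming of these libraries captures. Another source of noncoding RNA is the pseudogene, a copy of a gene that has lost its coding function and that can still be transcribed.

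The annotation did not bear out a broad lncRNA catalogue here. Of the 362 transcripts, 345 (95.3%) belonged to genes that GENCODE tags as overlapping a pseudogene, a tag carried by 829 of its 18866 lncRNA genes (4.39%). A pseudogene was annotated on the same strand for 329 transcripts (90.9%). Neither mark was found for 10, which were transcripts of LINC02898, C8orf44, ARIH2OS, GDF5-AS1, HHLA3 and the unnamed gene ENSG00000291094. The lncRNA class had 1032 of its 56357 transcripts (1.83%) with a count in these libraries, against 47123 of 89067 (52.9%) for the protein-coding class. Whether the transcript reference to which reads were mapped held the rest of the lncRNA class is not given in the sources used here, so these shares cannot be read as the expression of lncRNAs in RM82 cells. The transcripts described are therefore mostly lncRNA models at pseudogene loci. Only 85 of the 229 genes had a symbol, and the others are given by their Ensembl gene identifier and the pseudogene they overlap.

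The well-known lncRNAs were not analysed here. None of 24 host genes of microRNAs or snoRNAs, 11 imprinted lncRNAs, 16 lncRNAs of the HOX clusters and 31 lncRNAs associated with cancer or Ewing sarcoma contributed a transcript that met the rule. From these lists MIR9-1HG alone had counts, 5 in all. A gene without a count here, such as TUG1 or DANCR, may have had no entry to map to, and a lack of expression and a lack of an entry cannot be told apart.

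The 3′ ends of 2 transcripts are shown because oligo(dT)-primed reads start there, and because a short read can be placed only by the bases in which related ends differ. The last 120 bases are given from the GENCODE release 44 transcripts, 5′ to 3′. In ENST00000641215, which has no close relative, capitals mark the letters AATAAA, the hexamer that precedes many polyadenylation sites. In ENST00000426587, capitals mark bases that differ from the relative named.
ENSG00000290827 ENST00000641215: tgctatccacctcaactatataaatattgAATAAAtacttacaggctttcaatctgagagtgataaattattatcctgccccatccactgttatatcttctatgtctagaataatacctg
ENSG00000290833 (STAG3L2) ENST00000426587 against ENSG00000290832 (STAG3L3): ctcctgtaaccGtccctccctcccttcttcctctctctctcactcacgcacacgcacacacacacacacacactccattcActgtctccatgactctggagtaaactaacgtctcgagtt
The STAG3L2 transcript had 2 bases that differed from STAG3L3 in this stretch. The last 500 bases of ENST00000426587 also matched STAG3L3 at the limit used below, while those of ENST00000428423, the STAG3L3 transcript of the comparison, matched no other gene.

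Relatedness was common beyond this example. When the last 500 bases of each transcript were aligned to all 86362 counted transcripts with a sequence, 80 transcripts (22.1%) had a match in another gene that scored at least 0.9 of the match to itself, and 32 of them matched a coding gene. Another transcript of the same gene was matched that closely by 83, and 220 had neither. Over their full length, 30 transcripts (8.29%) had such a match in another gene. A coding transcript aligned over at least 50% of the length of 109 transcripts (30.1%), from 79 genes, with a median identity of 90.4%. The alignment ran in the same orientation for 95 of these. Values of such transcripts are uncertain, because the mapping, which allowed secondary alignments, could divide their reads between the copies or count them at each.

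The counts of near-identical copies ran in parallel. A transcript of another gene was at least 99% identical over at least 95% of the length of 19 of the 362, and in 17 of these the summed counts of the copies were within 1.5 times of each other. ENST00000564458 of ENSG00000290984 and ENST00000564795 of ENSG00000291268, both HERC2 copies with the same sequence, had counts of 36, 24 and 21 with SGC-CLK-1 and 34, 36 and 29 with DMSO, and of 37, 21 and 23 and 30, 37 and 23. CCDC144BP had a sum of 1197 and its coding relative CCDC144A one of 1408. Such copies may not be separate observations, and whether the same molecules were counted at both was not tested. The hexamer AATAAA, searched on the transcript strand only, lay in the last 50 bases of 37.3% of the 362 transcripts, 34.0% of all counted transcripts, 44.7% of the protein-coding class and 22.0% of retained-intron transcripts.

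The transcripts were intergenic in 252 cases (171 genes), antisense to a coding gene in 53 (31 genes), hosts of a small RNA in 29 (21 genes) and overlapping a coding gene on the same strand in 28 (17 genes). Of the intergenic transcripts, 11 started within 2 kb of a coding gene transcribed the other way. An exon of 54 transcripts overlapped a coding exon on either strand, and 31 of the 53 antisense transcripts did so on the other strand. Their median length was 1848 bases with 5 exons, beside 1614 bases and 6 exons for all counted transcripts, and 14 had a single exon. Chromosome 7 held 65 of them (18.0%), against 5.00% of all counted transcripts that could be placed. A stretch of GRCh38, chr7:72862757-76627982, held 22 transcripts from 11 genes with 1285 counts together, a window chosen after the positions were seen and including the STAG3L and NSUN5P copies.

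Most were rare. The median level was 9.99 CPM, the count scaled to the library total, with a range from 3.25 to 438. The median summed count was 27, only 43 transcripts reached 100, and 262 had a count in all 6 libraries. The 10 most abundant transcripts held 24.9% of the 19431 counts. A UMI marks a molecule, so CPM was not divided by length. After division by length, 6 of the same 10 stayed among the first 10.

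The transcripts took 0.772%, 0.711% and 0.725% of the counts in the SGC-CLK-1 libraries and 0.709%, 0.698% and 0.642% in the DMSO libraries. Means were 0.736% ± 0.0321 and 0.683% ± 0.0364 (SD, n = 3). The lowest SGC-CLK-1 share was just above the highest DMSO share, so the groups did not overlap, but the difference of 0.0530 percentage points was within 2 SD. Intergenic transcripts, which held most of the counts in both groups, also made up most of this difference. They held 0.528% ± 0.0101 and 0.488% ± 0.0338 (SD, n = 3), and their groups did not overlap either. Antisense transcripts held 0.101% ± 0.0102 and 0.0962% ± 0.0115, and host transcripts 0.0394% ± 0.00603 and 0.0364% ± 0.00555 (SD, n = 3). Sense-overlapping transcripts held 0.0680% ± 0.0134 and 0.0621% ± 0.00380 (SD, n = 3). In these last classes the groups overlapped. The gap depended on single libraries. It was 0.0322 percentage points without DMSO replicate 3, the lowest, and 0.0349 without SGC-CLK-1 replicate 1, the highest. For intergenic transcripts it went from 0.0397 to 0.0202 without DMSO replicate 3. Leaving out the transcripts whose full length matched another gene gave 0.684%, 0.629% and 0.633% with SGC-CLK-1 against 0.614%, 0.606% and 0.549% with DMSO. Less abundant transcripts of all classes together also held a larger share with SGC-CLK-1. Transcripts abundant enough for the test described below held 67.9%, 67.5% and 68.1% of the counts with SGC-CLK-1. With DMSO they held 70.0%, 70.5% and 71.5%, without overlap. Most of the lncRNA transcripts, 289, were below that limit of abundance. Whether their share differed beyond this wider shift was not tested. In counts from whole cultures, more RNA per cell and more cells that hold it cannot be told apart.

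**Figure D1:**
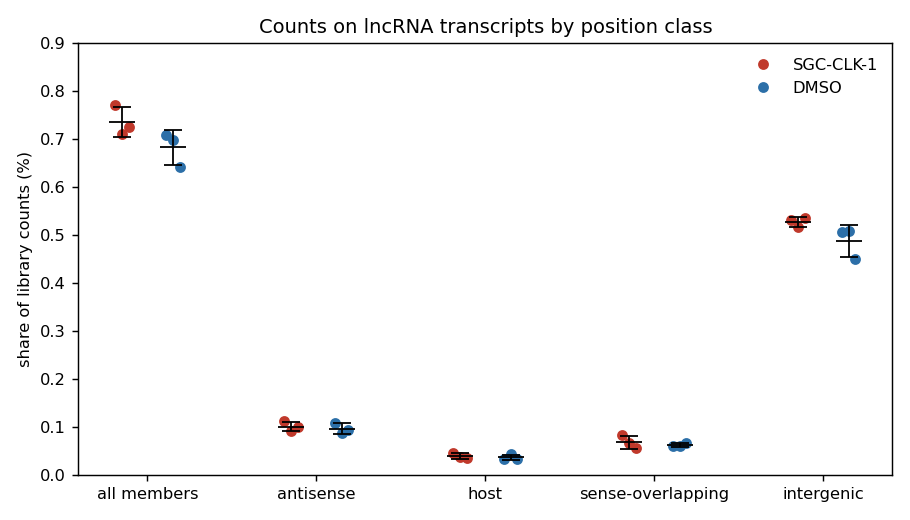
Share of each library's UMI counts (percent, from 0) on all 362 lncRNA transcripts and on each position class; points are libraries, and bars are the mean and SD of 3 libraries per group. Intergenic transcripts hold most of the counts, and the SGC-CLK-1 and DMSO libraries lie apart only for all members and for the intergenic class.

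The most abundant transcript was ENST00000618081 of CCDC144BP, a pseudogene copy of CCDC144A (chr17:18537800-18625620, minus strand, 17 exons, GRCh38). Its levels were 450, 389 and 475 CPM with SGC-CLK-1 and 423, 464 and 429 CPM with DMSO. The groups overlapped throughout, and the log2 fold change was 0.01 (SE 0.19). It was 99.1% identical to a CCDC144A transcript over 99.9% of its length, and its 3′ end also matched that gene.

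ENST00000548191 of ENSG00000290863 (chr12:110049360-110073686, minus strand), which lies within the span of the coding gene C12orf76 on the same strand, was the second most abundant and the first per length. It reached 375, 314 and 241 CPM with SGC-CLK-1 and 291, 288 and 290 CPM with DMSO. The DMSO libraries lay together inside the wide spread of the treated ones. MFSD14CP, ENST00000647176 (chr9:96887373-97013675, minus strand), a copy of a transporter-like gene that lies antisense to NUTM2G, had 240, 171 and 177 CPM against 233, 224 and 225 CPM. Here SGC-CLK-1 replicate 1 was above the DMSO libraries and replicates 2 and 3 were below. NUTM2G itself had 19 counts over the 6 libraries.

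ENST00000655749 of ENSG00000291194, which overlaps the pseudogenes USP32P3 and FAM106B, had 178, 138 and 174 CPM with SGC-CLK-1 and 168, 201 and 174 CPM with DMSO. The 3′ end of this transcript matched 3 other genes. ENST00000602666 of ENSG00000290441, over the pseudogene WDR45P1, had 150, 135 and 150 CPM against 159, 164 and 134 CPM. For both the groups overlapped.

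ENST00000428423 of ENSG00000290832, at STAG3L3, a copy of the cohesin subunit gene STAG3, stood lower after treatment (chr7:72997059-73005918, minus strand). Its levels were 129, 88.2 and 61.7 CPM with SGC-CLK-1 and 134, 143 and 150 CPM with DMSO. The groups did not overlap, the log2 fold change was -0.56 (SE 0.25), and edgeR's quasi-likelihood test gave an adjusted p of 0.229. Without SGC-CLK-1 replicate 1 the log2 fold change was -0.91 (adjusted p 0.0748), and without replicate 3 it was -0.33 (adjusted p 0.611). ENST00000667970 of ENSG00000291166 (chr9:42830363-42848951, plus strand) had 124, 113 and 115 CPM against 101, 99.3 and 91.2 CPM, also without overlap, and its log2 fold change was 0.29 (SE 0.23).

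The single-exon transcript ENST00000609084 of CRYBB2P1, a copy of the lens crystallin gene CRYBB2, had 90.0, 107 and 85.8 CPM with SGC-CLK-1 and 108, 111 and 80.5 CPM with DMSO, and the groups overlapped. ENST00000513408 of ENSG00000290560, over GUSBP3, had 75.0, 93.7 and 69.7 CPM against 62.4, 89.8 and 56.3 CPM, likewise overlapping. TPTEP1, the ninth most abundant, is described with the comparison of the treatments.

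**Figure D2:**
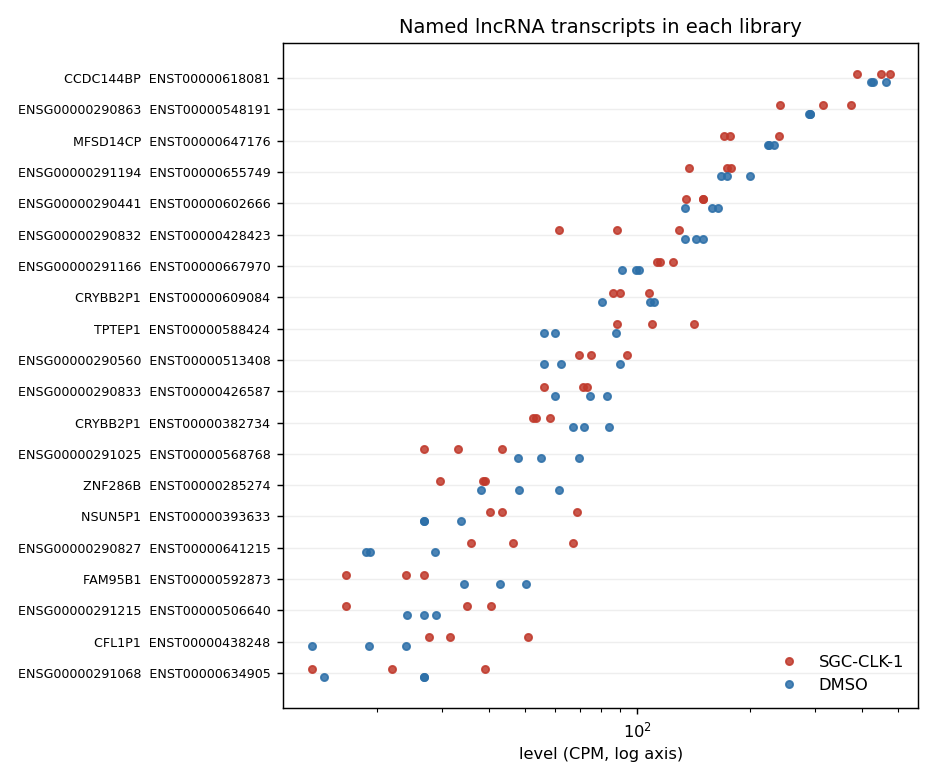
Level of each named lncRNA transcript (CPM, log axis) in the 3 SGC-CLK-1 and 3 DMSO libraries, 1 point per library. CCDC144BP is at the top near 438 CPM with the groups mixed, while ENST00000641215 and TPTEP1 ENST00000588424 have all SGC-CLK-1 points to the right of the DMSO points.

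The test of SGC-CLK-1 against DMSO called no lncRNA transcript. Of the 362, 73 (20.2%), from 62 genes, were abundant enough for edgeR's filter. The 289 left out had summed counts of at most 80, with a median of 22. In the same quasi-likelihood fit 310 of 7840 transcripts had an adjusted p under 0.05 (3.95%), with 1.85% higher and 2.10% lower in SGC-CLK-1, while among the 73 there were 0 with edgeR and 0 with DESeq2. DESeq2 gave 51 of the 73 no adjusted p, and it called 1.44% of all transcripts. The 73 included 14 with an unadjusted p under 0.05 in edgeR (19.2%), beside 18.0% of all transcripts tested, and 2 in DESeq2, beside 10.6%. Among the 73, 9 had such a p in edgeR and were higher with SGC-CLK-1, and 5 had it and were lower. Among all 7840, 700 (8.93%) had such a p and were higher, and 714 (9.11%) had it and were lower. The edgeR share was near the background, and the DESeq2 share of 2.74% was below it.

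The log2 fold changes of the 73 ran from -0.90 to 1.12, with 42 above and 31 below 0. Their median was 0.09, beside -0.01 over all 7840, and it was -0.04 without SGC-CLK-1 replicate 1. The median SE was 0.33, and with the log2 fold change of 1.12 (SE 0.35) described next the threshold was still missed, so changes of that size could go uncalled at this depth. In 25 of the 73 (34.2%) the CPM of the groups did not overlap, beside 23.0% of all transcripts tested.

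**Figure D3:**
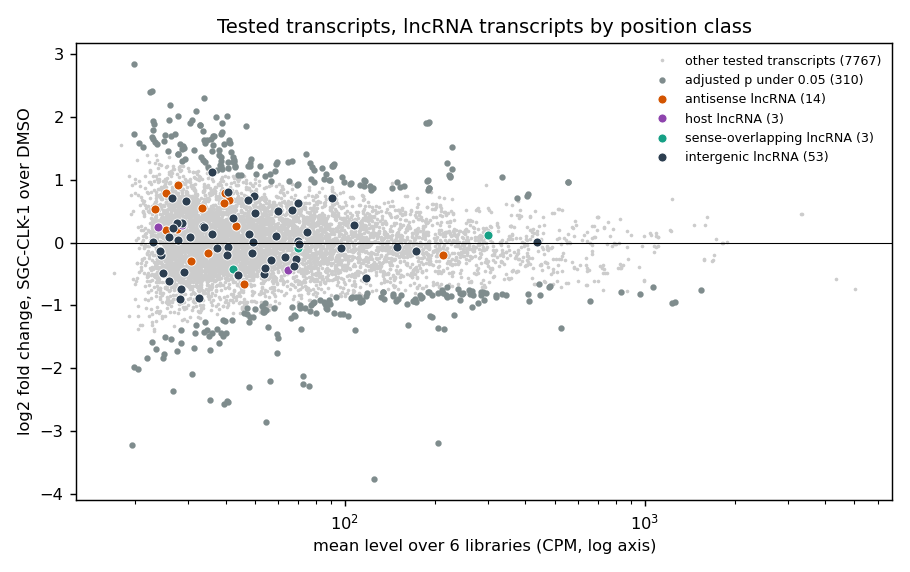
Log2 fold change of SGC-CLK-1 over DMSO against mean CPM over 6 libraries (log axis) for the 7840 transcripts tested; dark grey points have an adjusted p under 0.05 in edgeR and coloured points are the 73 lncRNA transcripts by position class. The coloured points lie between -0.90 and 1.12, and none is among the 310 called.

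The smallest p belonged to an intergenic transcript, ENST00000641215 of ENSG00000290827 (chr11:57861948-57873588, minus strand, 3 exons), which overlaps the olfactory receptor pseudogene OR5BA1P. Its counts were 31, 13 and 25 with SGC-CLK-1 and 8, 15 and 7 with DMSO, or 46.5, 35.8 and 67.0 CPM against 19.2, 28.7 and 18.8 CPM. Every treated library was above every DMSO library. The fold was 2.17, with a log2 fold change of 1.12 (SE 0.35), and the adjusted p of 0.0686 in edgeR missed the threshold. Leaving out 1 library at a time gave adjusted p from 0.0485, without DMSO replicate 2, the highest of its group, to 0.251, without SGC-CLK-1 replicate 3. It was 0.151 when all transcripts with a summed count of 10 or more were fitted. This transcript had no relative at its 3′ end, and the AATAAA shown above lies outside its last 50 bases.

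TPTEP1 is named as a pseudogene of TPTE, a phosphatase gene known from testis. It had 3 tested transcripts, with log2 fold changes of either sign. No coding relative was found among the counted transcripts for ENST00000588424 or ENST00000426585. ENST00000588424 (chr22:16638579-16640737, plus strand, 2 exons) had 109, 88.2 and 142 CPM with SGC-CLK-1 and 60.0, 87.9 and 56.3 CPM with DMSO. The groups touched without overlapping, with a log2 fold change of 0.72 (SE 0.26, adjusted p 0.126 in edgeR). ENST00000426585, a longer form of 5 exons, had counts of 36, 18 and 19 against 25, 43 and 16, and a log2 fold change of -0.27 (SE 0.29). ENST00000415121 had counts of 24, 15 and 12 against 22, 31 and 16, which in CPM did not overlap, and a log2 fold change of -0.51 (SE 0.30). The test of transcript usage gave TPTEP1 an adjusted p of 1.00 in edgeR. At STAG3L3, also with 3 tested transcripts, ENST00000428423 was described above. ENST00000423834 had counts of 15, 8 and 6 against 11, 14 and 13, with a log2 fold change of -0.48 (SE 0.38) and CPM that did not overlap. ENST00000448173 had counts of 46, 32 and 20 against 28, 22 and 15, with a log2 fold change of 0.50 (SE 0.29). Usage of ENSG00000290832 also had an adjusted p of 1.00, although it was the 1 gene among 10 with an unadjusted p under 0.05, beside 1.72% of all genes in that test.

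FAM95B1, ENST00000592873 (chr9:40324530-40329221, plus strand, 1 exon), was lower, with 24.0, 16.5 and 26.8 CPM against 50.4, 34.4 and 42.9 CPM. The groups did not overlap, and the log2 fold change was -0.87 (SE 0.35, adjusted p 0.177 in edgeR). It was 99.9% identical over its whole length to ENST00000618309, a retained-intron transcript of ENSG00000290970. The counts nearly repeated each other. In the order of the libraries they were 16, 6, 10, 21, 18 and 16 for FAM95B1. The copy had 18, 6, 11, 21, 18 and 16. The pair may not be 2 separate observations, and whether reads were shared was not tested. Outside the naming rule and chosen after its values were seen, LINC00680 (ENST00000422882, chr6) had counts of 44, 25 and 19 against 12, 19 and 18, with a log2 fold change of 0.74 (SE 0.30, adjusted p 0.178). No threshold was passed by either.

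Antisense transcripts had 14 tested members, with 0 called by edgeR and 4 at an unadjusted p under 0.05 (28.6%), beside 18.0% of all transcripts. DESeq2 gave 0 of the 14, and edgeR gave 1 of 15 without SGC-CLK-1 replicate 2 and 1 of 15 without replicate 3. Their median log2 fold change was 0.41, beside -0.01 for all transcripts, with 10 above 0. It was 0.24 without DMSO replicate 2. With all 53 antisense transcripts in the fit the median was 0.14, with 29 above 0, beside 0.04 for all transcripts. The difference between position classes was not tested. NSUN5P1, a copy of the rRNA methyltransferase gene NSUN5, has transcript ENST00000393633 (chr7:75410350-75416786, plus strand) antisense to POM121C, which encodes a nuclear pore protein. It had 43.5, 68.9 and 40.2 CPM with SGC-CLK-1 and 33.6, 26.7 and 26.8 CPM with DMSO. All treated libraries were higher, with a log2 fold change of 0.79 (SE 0.33, adjusted p 0.203 in edgeR). POM121C, summed over its transcripts, had a log2 fold change of 0.19. Only 0.02% of the exonic length of ENST00000393633 lay on coding exons of the other strand, and its 3′ end matched NSUN5P2. The coding relative found for it was POM121, at 82.0% identity over 53.8% of its length.

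CFL1P1, a copy of the actin-severing cofilin gene CFL1, has ENST00000438248 (chr10:87818313-87845612, plus strand) antisense to ATAD1, an ATPase of the mitochondrial outer membrane. Its levels were 31.5, 27.6 and 50.9 CPM with SGC-CLK-1 and 24.0, 19.1 and 13.4 CPM with DMSO. The treated libraries were all higher, with a log2 fold change of 0.92 (SE 0.39, adjusted p 0.203 in edgeR). ATAD1 had 43 counts in all and was not tested.

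ENST00000568768 of ENSG00000291025 (chr2:94867486-94947341, minus strand), antisense to TEKT4, a gene of ciliary and sperm tail microtubules, went the other way. It had 43.5, 33.1 and 26.8 CPM with SGC-CLK-1 and 55.2, 47.8 and 69.7 CPM with DMSO. The groups did not overlap, and the log2 fold change was -0.66 (SE 0.31, adjusted p 0.257 in edgeR). TEKT4 had no count.

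Over the 53 antisense transcripts there were 35 coding genes on the other strand, of which 15 had enough counts for the gene test and 0 were called by edgeR, whose share over all genes was 0.236%. Pairs with both sides tested numbered 6. Among them PPAT, an enzyme of purine synthesis, had a log2 fold change of 0.29 beside 0.68 for its antisense transcript of ENSG00000290817. SERHL2 had 0.96 beside 0.55 for RRP7BP, and WDR73 had 0.21 beside 0.27 for ENSG00000291159. The transcript of ENSG00000291159 had 52.9% of its exonic length on coding exons of the other strand, and its 3′ end matched WDR73. Whether that pair shared reads was not tested. CRLF3 had -0.34 beside -0.29 and 0.20 for the pair of transcripts of ENSG00000290928. Each value has its own error and none passed the test. The smallest p of the 15 was that of BIRC6, an inhibitor of apoptosis, opposite BIRC6-AS2, whose own transcript had 15 counts and was not tested. BIRC6 had 121, 165 and 169 CPM with SGC-CLK-1 and 60.0, 51.6 and 67.0 CPM with DMSO, without overlap, and its log2 fold change was 1.27 (SE 0.28, adjusted p 0.0546 in edgeR). The antisense exon overlap was partial, with a median of 10.3% of the transcript's exonic length among those that had any.

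Host transcripts held a microRNA in 6 cases, a snoRNA in 7 and an snRNA gene, mostly a U6 copy, in 16. MicroRNAs and most snoRNAs are released from the RNA of their host, while U6 copies are separate genes. The microRNAs are shown for that reason. Their mature sequences from RefSeq (GRCh38.p14) follow, 5′ to 3′, with the seed, bases 2 to 8, in capitals.
hsa-miR-6817-3p, in CRYBB2P1: uCUCUCUGacuccauggca
hsa-miR-3680-3p, in ENSG00000291073: uUUUGCAUgacccugggaguagg
hsa-miR-3680-5p, in ENSG00000291073: gACUCACUcacaggauugugca
hsa-miR-1270, in ENSG00000291130: cUGGAGAUauggaagagcugugu
hsa-miR-6859-5p, in ENSG00000290823: gAGAGGAAcaugggcucaggaca
hsa-miR-6859-3p, in ENSG00000290823: uGACCCCCaugucgccucuguag
No seed was shared among these. The libraries capture polyadenylated RNA, so the mature microRNAs themselves were not measured.

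Only 3 host transcripts were tested, and 0 were called by edgeR or had an unadjusted p under 0.05. ENST00000382734 of CRYBB2P1 (chr22:25448080-25461678, plus strand), which spans MIR6817, had 58.5, 52.4 and 53.6 CPM with SGC-CLK-1 and 72.1, 84.1 and 67.0 CPM with DMSO. Every treated library was lower, with a log2 fold change of -0.43 (SE 0.26, adjusted p 0.422 in edgeR). The single-exon transcript of the same gene did not separate the groups. The U6-holding transcripts ENST00000506640 of ENSG00000291215 and ENST00000634905 of ENSG00000291068, over GTF2IP20, had log2 fold changes of 0.28 (SE 0.37) and 0.25 (SE 0.42), with overlapping groups. Leaving out single libraries moved the first from -0.03, without SGC-CLK-1 replicate 1, to 0.55, without replicate 2, and the second from 0.02, without DMSO replicate 1, to 0.53, without SGC-CLK-1 replicate 3. The second was not tested without SGC-CLK-1 replicate 1. The host of MIR3680-1 had 48 counts and that of SNORA22C and SNORA15B-1 in CCT6P3 had 51. The SNORA7B hosts of ENSG00000290993 had 20 to 35 each, and the 2 LINC00888 transcripts that hold SNORA63D and SNORA63E had 12 and 11.

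Sense-overlapping transcripts had 3 tested members, with 0 called by edgeR and 0 at an unadjusted p under 0.05. ENST00000285274 of ZNF286B, a zinc finger gene copy that overlaps FOXO3B, had 39.0, 38.6 and 29.5 CPM with SGC-CLK-1 and 48.0, 38.2 and 61.7 CPM with DMSO. The groups overlapped, with a log2 fold change of -0.41 (SE 0.31, adjusted p 0.538 in edgeR). That value was -0.25 without DMSO replicate 3 and -0.58 without DMSO replicate 2. The transcript was 94.7% identical to ZNF286A over 99.6% of its length. ENST00000426587 of STAG3L2, whose end is shown above, had 73.5, 71.7 and 56.3 CPM against 60.0, 74.5 and 83.1 CPM. Its log2 fold change was -0.09 (SE 0.26), and the groups overlapped.

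A filter that kept every transcript with a summed count of 10 or more put all 362 into the fit, which then had 0.761% of 33361 transcripts called. It called 1 of the 362, ENST00000424133 of ENSG00000291272. This transcript overlaps PKD1P6, a copy of the polycystin gene PKD1, and lies antisense to PDXDC1. Its counts were 5, 0 and 1 with SGC-CLK-1 and 15, 12 and 5 with DMSO. The log2 fold change was -2.49 (SE 0.59, adjusted p 0.0218 in edgeR), and the CPM of the groups did not overlap, although SGC-CLK-1 replicate 1 and the smaller library DMSO replicate 3 had the same count. It matched a PKD1 transcript at its end, and which of the loci its reads came from was not tested. In that fit 11.6% of the 362 had an unadjusted p under 0.05, beside 11.2% of all.

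Counts summed to genes were tested as well. Of the 229 genes, 93 were tested and 0 were called by edgeR, where 15 of 6344 genes (0.236%) were. DESeq2 also called 0 of the 93, beside 1.69% of all genes. In edgeR 7 had an unadjusted p under 0.05 (7.53%), beside 13.9% of all genes, and the median log2 fold change was 0.10. Transcript usage could be tested in 10 of the genes, and edgeR called 0, beside 0.277% of all genes tested.

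A transcript of another class in such a gene did change. ENST00000429810, annotated as a retained-intron transcript of the lncRNA gene ENSG00000290890, had counts of 15, 5 and 4 with SGC-CLK-1 and 81, 109 and 112 with DMSO. Its log2 fold change was -3.76 (SE 0.31, adjusted p 8.62e-10 in edgeR). It is outside the lncRNA transcript class and no transcript of that gene met the rule. The other 4 tested transcripts of this kind were retained-intron forms of CCT6P3, SDHAP4, ENSG00000290970 and ENSG00000291024. Their log2 fold changes were 0.86, -0.04, -0.75 and 0.38, and none was called. The -0.75 of ENSG00000290970 is that of the FAM95B1 copy described above.

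The pseudogene copies fell into families. The 13 families below were chosen after the transcripts had been seen and held 90 of the 362 transcripts (24.9%) with 4496 counts. Each is named after the coding gene in the names of its copies. That gene's value is given beside each family whose levels are given, because reads can be shared by a gene and its copies. The best coding match was not always that gene. It was for 2 of 9 STAG3, 1 of 6 TPTE, 1 of 7 GTF2I, 2 of 7 NSUN5 and 3 of 10 GUSB transcripts. It was for 7 of 9 SMG1, 5 of 7 HERC2, 6 of 6 CROCC and 5 of 5 SUZ12 transcripts. RNF216 and SDHA had 4 of 6 each, and SEPTIN7 and DPY19L2 had 5 of 6 each. In the TPTE, CROCC, RNF216, SDHA, DPY19L2 and SUZ12 families no 3′ end matched another gene at the limit used. The STAG3 family, copies of a cohesin subunit gene, was the most abundant, with 9 transcripts on chromosome 7 and 909 counts. Its summed level was 313 ± 53.9 CPM with SGC-CLK-1 and 351 ± 21.1 CPM with DMSO (SD, n = 3), while STAG3 had 45.7 ± 8.41 and 28.3 ± 15.3 CPM. The TPTE family, with 6 transcripts, had 234 ± 13.1 and 220 ± 53.2 CPM, beside 14.7 ± 6.28 and 19.8 ± 17.2 CPM for TPTE, and the HERC2 family, copies of a ubiquitin ligase gene with 7 transcripts, had 190 ± 12.5 and 222 ± 9.51 CPM (SD, n = 3), with all treated libraries lower. The identical pair of HERC2 copies named above held 180 and 171 of the family's 553 counts, so the sum may hold molecules counted at both. HERC2 had 53.6 ± 11.6 and 32.8 ± 15.6 CPM.

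The GUSB family, copies of the lysosomal enzyme beta-glucuronidase, had 10 transcripts and 211 ± 9.73 CPM with SGC-CLK-1 against 158 ± 17.4 CPM with DMSO (SD, n = 3). Its libraries were 199, 218 and 214 CPM against 151, 178 and 145 CPM, without overlap. GUSB had 49.3 ± 7.16 and 53.8 ± 9.98 CPM. The SMG1 family, copies of the kinase that starts nonsense-mediated decay, had 9 transcripts on chromosome 16, of which 7 had a 3′ end matching another gene. Its libraries were 190, 135 and 131 CPM against 98.5, 124 and 105 CPM, all higher with SGC-CLK-1. ENST00000517529 and ENST00000337787, with 30 and 27 counts, were near-identical, as were ENST00000431681 and ENST00000520823, with 47 and 62. The family's sum may therefore hold molecules counted at more than 1 copy. SMG1 itself was lower in each treated library, with 271, 267 and 271 CPM against 365, 405 and 408 CPM. That gene's log2 fold change was -0.62, with an adjusted p of 0.151 in edgeR.

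The other families were smaller, and no test was made of a family's sum. The DPY19L2 family, copies of a gene for sperm head formation, had 73.6 ± 6.62 and 39.5 ± 19.8 CPM (SD, n = 3). DPY19L2 had 37.7 ± 17.5 and 11.0 ± 3.01 CPM, with an adjusted p of 0.182 in edgeR. The SDHA family, copies of a mitochondrial succinate dehydrogenase subunit, had 84.3 ± 2.38 and 58.6 ± 16.2 CPM (SD, n = 3), and SDHA itself 132 ± 26.2 and 82.5 ± 45.3 CPM. The NSUN5 family had 79.5, 110 and 72.4 CPM with SGC-CLK-1 and 55.2, 63.0 and 67.0 CPM with DMSO, while NSUN5 had 36.6 ± 23.9 and 42.8 ± 19.2 CPM (SD, n = 3). In the DPY19L2, SDHA and NSUN5 families the groups did not overlap. The RNF216 family, copies of a ubiquitin ligase gene, had 69.2 ± 11.6 and 49.2 ± 11.5 CPM, also apart, beside 102 ± 12.4 and 91.4 ± 6.47 CPM for RNF216 (SD, n = 3), while the GTF2I, CROCC, SEPTIN7 and SUZ12 families overlapped between the groups. Among all transcripts tested singly, the CPM of the groups did not overlap in 23.0%. No such share was computed for sums over sets of transcripts. The separations of family sums given here and above can therefore not be read as particular to these families. Of the 13 coding genes, 12 were tested and 0 were called by edgeR.

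**Figure D4:**
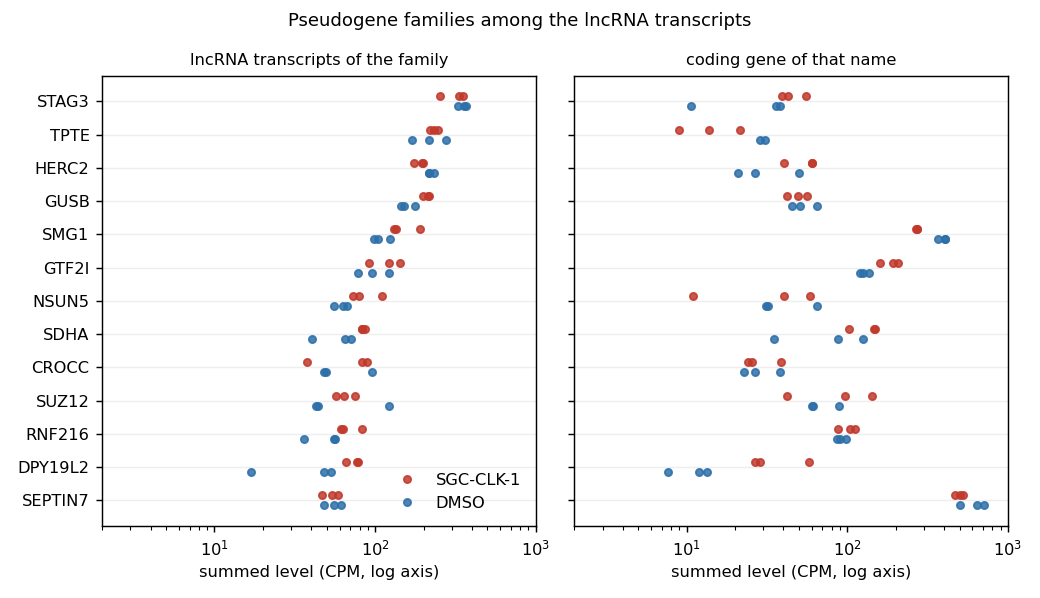
Summed CPM (log axis) of the lncRNA transcripts of 13 pseudogene families (left) and of the coding gene of the same name (right) in 3 SGC-CLK-1 and 3 DMSO libraries; 1 point per library, with the single library at 0 for TPTE not drawn. The SMG1 family lies higher with SGC-CLK-1 where SMG1 lies lower, and the GUSB family lies higher while GUSB overlaps between the groups.

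A pair of pathways that act on noncoding RNA were examined through their coding genes. The nuclear exosome degrades many noncoding transcripts. Of its 21 genes and adaptors, 17 were tested and 0 were called by edgeR, with a median log2 fold change of -0.41 beside 0.00 over all genes. Of the 17, 14 had a log2 fold change below 0, as had 50.1% of all genes tested, and 1 had an unadjusted p under 0.05, as had 13.9%. The 3 above 0 were the nucleases EXOSC10 (0.44) and DIS3 (0.67) and the helicase MTREX (0.53), none with such a p. The gene with that p was EXOSC6, a subunit of the exosome ring, at 205 ± 27.4 CPM with SGC-CLK-1 and 281 ± 23.3 CPM with DMSO (SD, n = 3), with an adjusted p of 0.289 in edgeR.

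MicroRNA processing had 7 of 10 genes tested and 0 called by edgeR, with a median log2 fold change of 0.30, beside 0.00 over all genes. An unadjusted p under 0.05 was reached by 4 of the 7, with 3 higher and 1 lower, and by 13.9% of all genes. DROSHA, the nuclease that cuts microRNA hairpins out of host transcripts, had 111 ± 31.8 and 58.8 ± 6.81 CPM (SD, n = 3), with an adjusted p of 0.216 in edgeR. TARBP2, a partner of DICER1, had 46.6 ± 35.7 and 131 ± 9.90 CPM (SD, n = 3), with an adjusted p of 0.145 in edgeR.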

How the data were processed

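The authors primed cDNA with oligo(dT), tagged it with homotrimer UMIs, sequenced it on a PromethION, mapped reads to human transcripts with minimap2 and deposited UMI counts per transcript, without normalization, in 1 file per library. The submitters' processing notes name minimap2 2.22, featureCounts 2.0.1, UMI-tools and DESeq2. Which deduplication made these counts is not given in the sources used here. A transcript without a count in a library was set to 0. Identifiers without version were matched to GENCODE release 44, and 86362 of 93530 (92.3%) matched. The authors used Ensembl release 98, on the same assembly, GRCh38.

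The 362 transcripts, the lists, the families and the tests were chosen with earlier results of these data known. A transcript that holds a small RNA was a host, then antisense, then sense-overlapping, otherwise intergenic. Tests used edgeR 4.0.16 under R 4.3.3. Low transcripts were removed by filterByExpr (minimum count 10, minimum total 15), libraries were scaled by TMM, and p from the quasi-likelihood test was adjusted by Benjamini-Hochberg over all transcripts or genes tested. Usage was tested with diffSpliceDGE. The common biological coefficient of variation was 0.169. DESeq2 1.42.0 was an alternative. Relatives were found with minimap2 2.31. Named transcripts were the 10 with the highest mean CPM and, in each class, the 3 tested with the smallest p. Other transcripts of the same genes, LINC00680 and the further antisense pairs were named after their values were seen. The functions were tested on simulated data. The counts of libraries with different PCR cycles and the files on molecular identifiers were not used here. UMI counting intervals would cover counting error only. The end sequences of some named transcripts are not reported here.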

Additional observations from a re-analysis of the deposited data

How the results depend on the processing

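The count of lncRNA transcripts called was 0 under RLE scaling, library size only, a minimum of 10 counts in every library, DESeq2, members with a summed count of 30 or more, and without the transcripts whose exons overlap a coding exon. It was also 0 without those whose last 500 bases match another gene, an alternative chosen after seeing the data, which left 56 tested, and without those whose full length does, also chosen then, which left 66. It was 1 with all transcripts of a summed count of 10 or more, where the antisense count was 1, and leaving out single libraries gave 0 to 1, with 0 to 1 for intergenic transcripts. The single call came without DMSO replicate 2, and the cause was not tested. Genes and usage gave 0 throughout. The difference in the share of counts stayed between 0.0322 and 0.0662 percentage points when single libraries were left out, and was 0.0700 with all lncRNA transcripts, 0.0511 over matched counts and 0.0589 without full-length matches. Without SGC-CLK-1 replicate 1 it turned to -0.00098 for antisense, -0.00035 for host and -0.0013 for sense-overlapping transcripts, and without DMSO replicate 2 to -0.00035 for antisense ones. The replicate numbers did not pair the libraries: same-numbered libraries correlated at 0.059, 0.093 and -0.002, and not every library correlated best with its own number. With the replicate number as a block, 0 of 73 transcripts were called, and the count over all transcripts rose from 310 to 427.

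Of 234 alternative values for the 20 named transcripts, 223 kept their direction. The reversed values were near 0. CCDC144BP (ENST00000618081) had -0.048 with a summed count of 10 or more. Leaving out single libraries gave a range of -0.031 to 0.103 for it, -0.041 to 0.289 for ENST00000548191, -0.163 to 0.0045 for ENST00000602666, -0.233 to 0.0014 for ENST00000609084, -0.027 to 0.546 for ENST00000506640 and -0.200 to 0.038 for ENST00000426587 (log2 fold changes). ENST00000641215 passed the threshold in 1 alternative. The depth of 362826 to 666702 counts limits the test to 73 of 362 transcripts, and shared sequence limits which locus a count belongs to.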
